A study of Mus musculus with 10 samples.

Results

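The comparison described here sets the mouse embryonic stem cell (mESC) line that carries an shRNA against MMTR (Dmap1) beside its unmodified parent at day 0 (d0), the undifferentiated state. It rests on 2 of the 10 arrays of the series, 1 for each line, and on 17775 of the 45281 probes, those with a detection p-value of at most 0.05 on at least 5 of the 10 arrays. All lines derive from G-CCE, a feeder-free mESC line, and at d0 all were kept on gelatin with serum and leukemia inhibitory factor (LIF). The parent (WT) was untransfected. The knockdown line (MMTR KD) was transduced with the lentiviral vector pLV-TH carrying the shRNA, and clones marked by EGFP were isolated. The other 3 d0 lines, which serve as the range of line-to-line spread, were transfected with pcDNA3-Flag plasmids for full-length MMTR (MMTR-F), its C-terminal part (MMTR-C) or its N-terminal part (MMTR-N). The same 5 lines were profiled once more after 3 days without LIF (d3). For differentiation the study's methods describe cell aggregates made in hanging drops and then moved to bacterial dishes, so d3 differs from d0 in culture form too. The series text speaks of duplicated profiles, but each line is represented here by a single array per day, so no value below has a replicate error, WT is not a line that went through cloning or carried a mismatch shRNA, and what belongs to the shRNA, to the clone or to the single hybridization cannot be told apart.

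MMTR, the DNA methyltransferase 1-associated protein, is a subunit of the Tip60-p400 complex, which acetylates histones and exchanges the histone variant H2A.Z, and of the related SRCAP complex. In mESCs the Tip60-p400 complex is known for keeping developmental genes silent while the cells self-renew. LIF holds mESCs in the naive state through STAT3, and Nodal signalling, FGF signalling and a circuit of transcription factors around Pou5f1, Sox2 and Nanog set the balance between self-renewal and entry into differentiation.

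Dmap1 itself came first, as a check of the labels. On the log2 scale of the quantile-normalized signal, its probe read 10.59 in WT, 10.78 in the array labelled MMTR KD, 10.48 in MMTR-F and 10.52 in the MMTR-N line, and in MMTR-C it stood 1.42 above WT. The transcript was therefore not lower in the array labelled MMTR KD, where it lay 0.19 above WT, and at d3 the pair read 10.38 and 10.42. Because this goes against the label, the array is called the KD-labelled library below, and every direction given for it is that of this library. The array labelled MMTR-F was not above WT either, at -0.11 at d0 and -0.24 at d3 on a probe that reads high in MMTR-C, so the 3 arrays labelled with Flag-MMTR plasmids are called the plasmid lines, a name for the label and not for a Dmap1 level. Of the 22 listed subunits of the Tip60-p400 and SRCAP complexes, 20 were measured, and all 20 lay within 0.5 of WT, from -0.32 for Yeats4 to 0.24 for Ep400, with a median of 0.00.

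The d0 libraries had median signals between 217.7 (the KD-labelled library) and 243.9 (WT), and between 18152 and 18837 detected probes. The labelled cell type was borne by its markers in all 5 libraries. Pou5f1 read between 13.11 and 13.44, Nanog between 13.39 and 13.80, and all 13 listed core pluripotency genes were measured. Of 11 fibroblast markers 4 passed the detection filter (Fn1, Vim, Thy1 and Acta2, with a summed linear signal of 7052 in the KD-labelled library, 5106 in WT and 5580 to 7459 in the others), of 6 macrophage markers 1, and of 10 genes of the 2-cell-like state none. Eif2s3y, a Y-linked translation factor gene, read 11.76 in WT and 11.80 in MMTR-F but 8.26 in the KD-labelled library, 8.26 in MMTR-C and 7.98, under the detection floor, for MMTR-N. This split of the lines was the same at d3 for the pair compared here (11.75 in WT and 8.21, not detected, in the KD-labelled library).

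Differences of at least 0.5 on the log2 scale from WT, the size that the study's methods use, are called higher or lower below. In the KD-labelled library 846 probes were higher, 4.76% of the probes compared, and 868 were lower, 4.88%. In either direction these were 9.64% of the probes (787 higher and 1571 lower with median scaling, 1454 and 1542 with normexp background correction), against 5.19% for MMTR-F, 4.8% for MMTR-C and 3.23% for MMTR-N. With 1 probe per named gene, 621 of 9401 genes (6.61%) were higher and 525 (5.58%) lower. Outside chromosome 8, whose genes are kept apart and described further on, 615 of 8873 genes were higher (6.93%) and 389 lower (4.38%). The standard deviation of the probe differences was 0.311 between the KD-labelled library and WT, between 0.289 and 0.334 for its pairs with all 4 other d0 libraries, and between 0.218 and 0.257 among those 4. The KD-labelled library lay above all 4 others at 26.7% of the probes and below all 4 at 25.6%. Both conditions together, 0.5 from WT and outside the range of the other 4, held for 710 probes above (3.99%) and 789 below (4.44%).

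No test is possible between 2 single arrays. The nearest one, limma on the KD-labelled library against the mean of the other 4 d0 lines, takes this lone array to vary as those 4 do, so its p-values measure only the spread between lines. It called 5 probes higher (0.0281% of the probes) and 0 lower at an adjusted p of at most 0.05, with 1221 higher and 1224 lower at an unadjusted p under 0.05. The 5 probes belonged to Col4a1, Col4a2, Dab2 (a pair of probes) and Rnf17. These calls turned on single libraries, since 0 probes passed without MMTR-C or without MMTR-N, while 7 higher and 1 lower passed without WT or without MMTR-F.

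Among the genes with the highest differences outside chromosome 8 were Tgfbi, an extracellular matrix protein induced by TGF-beta, and Dab2, an endocytic adaptor of the extraembryonic endoderm. Tgfbi read 8.88 in WT, 11.56 in the KD-labelled library and 8.99, 10.69 and 10.02 in the other 3 lines (MMTR-F, MMTR-C, MMTR-N). The KD-labelled library was the highest, 6.42-fold over WT, but MMTR-C and MMTR-N also stood clear of WT, and the probes of Tgfbi ranged from 1.39 to 2.68. Dab2 differed in another way. It read 10.74 in the KD-labelled library and between 8.43 and 8.70 in all 4 others, a 4.13-fold difference from WT and a difference of 2.19 (SE 0.143, adjusted p = 0.016, limma) from their mean, though its 3 probes spread from 0.32 to 2.05. Others that were higher included the chromatin protein gene Hmgn3 (1.98), the small GTPase gene Mras (1.85, but 1.00 from the median of the other 4 libraries), the chromatin organizer Satb1 (1.84), the Hedgehog transcription factor Gli2 (1.73, with a second probe at 0.31), the receptor tyrosine kinase Kit (1.67, but 1.15 from that median) and the imprinted growth factor Igf2 (1.62). Igf2 read 11.23 in the KD-labelled library against 8.99 to 9.61 elsewhere, whereas for Hmgn3 the value of MMTR-F, 10.79, lay close to the 11.32 of the KD-labelled library. That the KD-labelled library lay above all 4 others was fixed by the choice of these genes.

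The interferon-inducible GTPase gene Gbp2 was higher by 1.68, reading 8.51 in WT, 10.18 in the KD-labelled library and 8.02 to 8.17 in the plasmid lines, in which it was not detected. At d3 the order differed, with 10.42 in MMTR-N and 9.33 in the KD-labelled library. Gbp2b, a near-identical neighbour whose probe may share signal with Gbp2 and which was picked out after its values were seen, read 9.88 against 7.98 to 8.35 and was also detected on 2 of the 5 d0 arrays. Both lay well clear of the other 4 libraries. The 250 bases upstream of both are printed because each holds the letters GAAANNGAAA of an interferon-stimulated element (capitals, here as the reverse complement), which 2.98% of the 32851 RefSeq windows of this length (GRCm38.p6, either strand) held.
Gbp2 (chr3:142620413-142620662, plus strand): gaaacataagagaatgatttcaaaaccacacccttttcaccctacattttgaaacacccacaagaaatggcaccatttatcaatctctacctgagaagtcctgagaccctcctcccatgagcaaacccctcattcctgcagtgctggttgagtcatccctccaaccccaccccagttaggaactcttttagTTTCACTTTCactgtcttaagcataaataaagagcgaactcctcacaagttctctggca
Gbp2b (chr3:142594597-142594846, plus strand): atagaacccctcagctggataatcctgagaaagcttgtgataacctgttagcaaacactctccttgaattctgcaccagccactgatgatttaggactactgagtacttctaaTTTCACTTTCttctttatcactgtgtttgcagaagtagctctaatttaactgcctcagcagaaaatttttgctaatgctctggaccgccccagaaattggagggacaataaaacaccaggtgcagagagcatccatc

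These are matches of letters and not sites shown to be bound. The wider interferon and double-stranded RNA response list did not go with them, with 2 of 11 measured members higher (Irf1 by 0.90, Eif2ak2 by 0.71), 1 lower (Ddx58, by 0.75) and a median of -0.07. Over all named genes 6.61% were higher and 5.58% lower.

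At the other end stood Lefty2, the secreted inhibitor of Nodal. It read 12.12 in WT, 9.99 in the KD-labelled library and 13.06, 12.29 and 12.25 in the other 3 lines (MMTR-F, MMTR-C, MMTR-N), which made the KD-labelled library the lowest by more than any gap among the other 4 and 4.37-fold below WT. Dnmt3l, the cofactor of de novo DNA methylation, read 14.86 in WT and 12.85 in the KD-labelled library, with the other 3 between 13.75 and 14.84, and its pair of probes gave -2.01 and -1.92. Trh, the thyrotropin-releasing hormone precursor, was lower by 1.98 on the log2 scale. The imprinted gene Mest was detected in WT (10.06) and not in the KD-labelled library, which put it at least 3.59-fold lower, but MMTR-F and MMTR-C at 8.24 and 8.11 were near background as well. Of the other lowest genes, the gap junction gene Gja1 (-1.70), the phosphate transporter Slc20a1 (-1.43), the plakophilin Pkp2 (-1.42) and the AKT coactivator Tcl1 (-1.32) were each below all 4 other libraries, which the choice of genes fixed. The probes of Slc20a1 did not move alike, from -1.43 to -0.09.

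**Figure D1:**
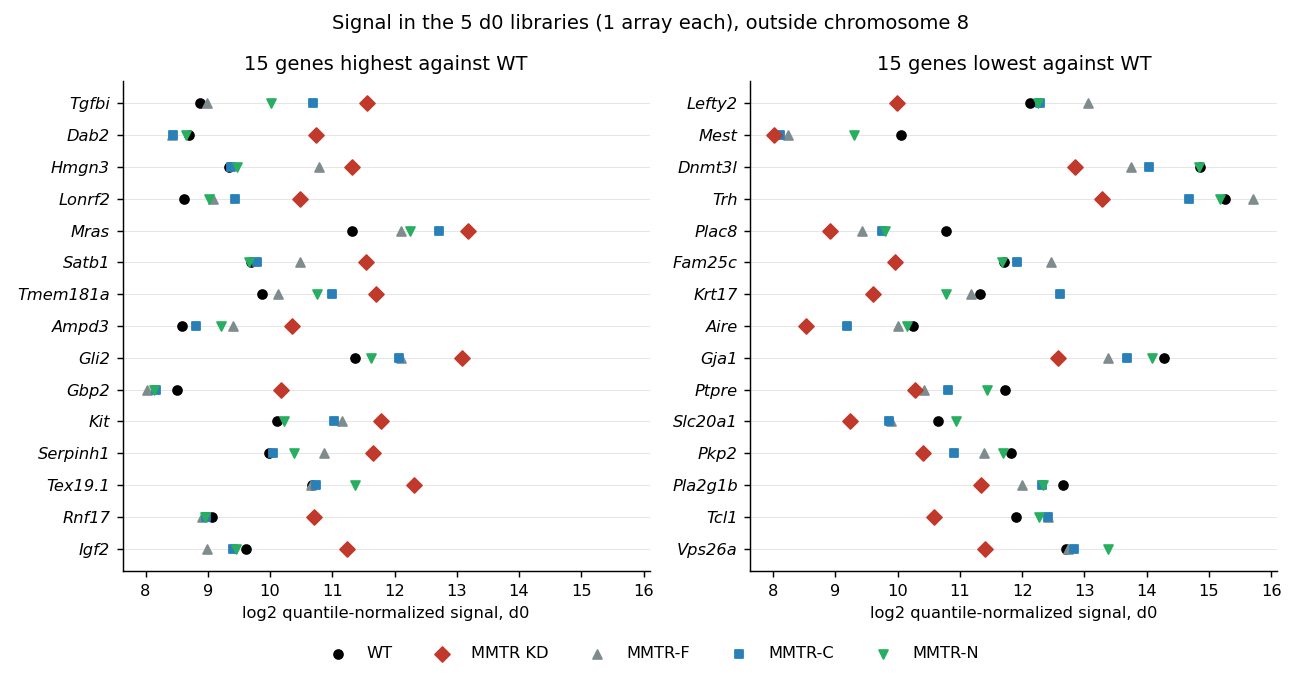
Log2 quantile-normalized signal (x axis) of the highest and the lowest named genes outside chromosome 8 (rows) in the 5 d0 libraries, 1 point per library and gene, 1 array per library. The KD-labelled library (MMTR KD in the key) lies outside the range of the other 4 in every row, which the choice of genes fixed, for Dab2 at 10.74 against 8.43 to 8.70 and for Lefty2 at 9.99 against 12.12 to 13.06.

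Germline genes, which most somatic cells and mESCs keep at low levels, stood higher in the KD-labelled library. Of 33 listed genes 14 were measured, 8 of them were higher and 1 was lower, and the median was 0.58, against 6.61% higher and a median of 0.02 over all named genes. The list median was 0.26 for MMTR-N, where 5 members were higher too, and 0.04 and -0.12 for MMTR-F and MMTR-C. The 250 bases upstream of the start site are printed for 3 of the 8 from RefSeq (GRCm38.p6), 5′ to 3′ on the gene's strand. These 3 were picked because their windows hold the letters marked below. Capitals mark an E-box (CACGTG) or the E2F-type element TCCCGC, read on either strand (GCGGGA is its reverse complement), the core letters bound by Mga-Max and E2F6 of the PRC1.6 complex, which is known for silencing germline genes in mESCs.
Tex19.1 (chr11:121145893-121146142, plus strand): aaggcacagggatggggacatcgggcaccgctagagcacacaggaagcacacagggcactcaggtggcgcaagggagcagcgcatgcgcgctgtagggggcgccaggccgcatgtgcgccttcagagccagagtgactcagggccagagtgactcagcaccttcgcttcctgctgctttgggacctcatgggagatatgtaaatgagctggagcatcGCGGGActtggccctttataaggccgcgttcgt
Taf7l (chrX:134476491-134476740, minus strand): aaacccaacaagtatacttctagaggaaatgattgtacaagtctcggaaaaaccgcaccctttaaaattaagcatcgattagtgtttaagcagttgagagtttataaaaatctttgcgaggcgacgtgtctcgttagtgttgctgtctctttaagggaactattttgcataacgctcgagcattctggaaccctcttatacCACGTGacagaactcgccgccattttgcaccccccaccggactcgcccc
Ddx4 (chr13:112652311-112652560, minus strand): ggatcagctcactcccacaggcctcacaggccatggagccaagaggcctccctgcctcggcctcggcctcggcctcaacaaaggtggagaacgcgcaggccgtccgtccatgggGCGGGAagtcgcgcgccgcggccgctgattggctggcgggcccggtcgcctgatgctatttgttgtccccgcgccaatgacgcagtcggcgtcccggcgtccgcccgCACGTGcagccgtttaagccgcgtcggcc

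Of the 8 germline genes that were higher, 7 had such a window. The E-box stood in 2 of them and the E2F-type element in 2, with 1 gene (Ddx4) holding both and 4 holding neither, while 6.02% and 16.9% of all 32851 RefSeq windows of this length held the first and the second. The letters were not particular to the higher genes. Among measured germline genes that were not higher, Syce2, Stag3 and Mov10l1 held the E-box. Tdrd5 and Syce2 held the E2F-type element, and Tdrd12 held neither. As before, only letters were matched. Tex19.1, which restrains retrotransposons in the germline, read 10.67 in WT, 12.32 in the KD-labelled library and 10.65, 10.74 and 11.37 in the other 3 lines (MMTR-F, MMTR-C, MMTR-N), so the KD-labelled library was 3.13-fold over WT and above all others. Rnf17, a tudor-domain protein of spermatids whose gene lies on chromosome 14, read 10.70 against 8.90 to 9.07, a difference of 1.73 (SE 0.109, adjusted p = 0.016, limma) from the mean of the other 4, with its probes between 0.66 and 1.63. The synaptonemal complex gene Syce1 read 9.21 in WT and 10.50 in the KD-labelled library, and the value of MMTR-N followed at 10.02. Taf7l, a TFIID subunit of spermatogenesis, was not detected in WT and was at least 1.95-fold higher. The RNA helicase gene Ddx4 read 9.07 against 8.22 to 8.58 and Dazl, an RNA-binding protein of germ cells, 9.04 against 8.35 to 8.62, both dim but above the other 4. Gpat2 was an exception to the separation, since its 9.39 in the KD-labelled library lay below the 9.78 of MMTR-N, and Tdrd12 was lower by 0.84. Among the subunits of PRC1 and PRC1.6, 3 of 20 were higher and 3 lower (6.61% and 5.58% of all named genes), with a median of 0.05. The 3 lower ones included L3mbtl2 (-0.88) and Pcgf6 (-0.50), both of PRC1.6, while E2f6 was higher by 0.58.

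Genes of the basement membrane, the sheet of matrix under epithelia, also stood above WT. All 17 listed basement membrane and matrix genes were measured, and 6 were higher and none lower (6.61% and 5.58% of all named genes). Above all 4 other libraries lay 11 of them (28.6% of all named genes did), and the median was 0.37. Collagen IV is the main scaffold of that sheet, and its alpha chain genes Col4a1 and Col4a2 are neighbours on chromosome 8. Col4a1 read 9.68 in WT, 11.56 in the KD-labelled library and 9.58, 9.59 and 9.58 in the other 3 lines (MMTR-F, MMTR-C, MMTR-N), so that the KD-labelled library was 3.67-fold over WT and the other 4 lay together (difference from their mean 1.95, SE 0.1, adjusted p = 0.015, limma). Col4a2 read 10.26 against 8.48 to 8.69, 3.13-fold over WT (adjusted p = 0.022, limma). The collagen chaperone gene Serpinh1 was higher by 1.66 (a second probe by 0.38), the perlecan gene Hspg2 by 0.69, the prolyl hydroxylase gene P4ha2 by 0.60 and the fibronectin gene Fn1 by 0.75, but Fn1 at 12.22 was matched by MMTR-F and MMTR-C at 12.20 each. The laminin genes Lama1 (0.41) and Lamc1 (0.37) were under 0.5. Without its members on chromosome 8 the median of the list was 0.19.

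Primitive endoderm, the layer that gives rise to the endoderm of the yolk sac, is known for strong expression of Dab2 and collagen IV. Of 16 listed primitive and visceral endoderm genes 6 were measured, with 4 higher, 1 lower and a median of 0.79 (6.61% of all named genes were higher and 5.58% lower). Besides Dab2 these were the endocytic receptor genes Amn (8.34 in WT, 9.29 in the KD-labelled library and 8.25 to 8.50 in the others) and Lrp2 (10.06, 10.84 and 8.93 to 9.87), and the transcription factor gene Sox7. Sox7 on chromosome 14 did not separate the KD-labelled library, at 9.67, from MMTR-C at 10.05, and its probes ranged from -0.15 to 0.79. Apoe was lower by 0.76. The other 10 listed genes did not pass the detection filter. In RNA from whole cultures, a change in the number of cells of a type and a change in RNA per cell cannot be told apart.

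**Figure D2:**
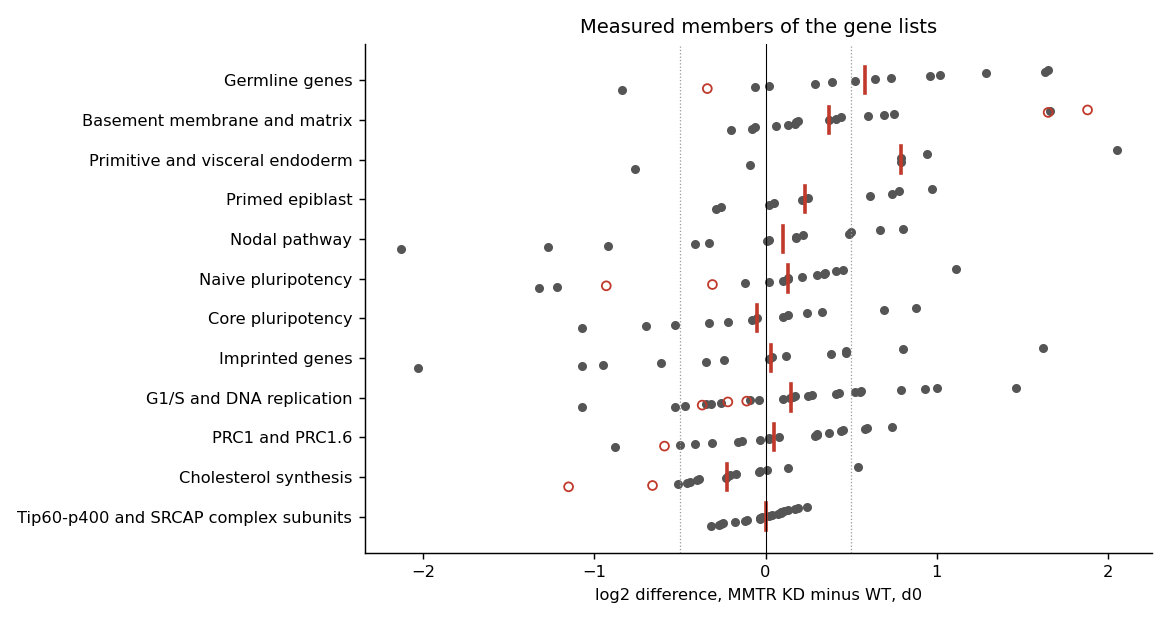
Difference from WT at d0 on the log2 scale (x axis) for the measured members of the gene lists (rows), 1 point per gene of the KD-labelled library, open circles for chromosome 8 genes, red bars for the list medians and dotted lines at 0.5 in either direction. The germline median stands at 0.58 and the basement membrane and matrix median at 0.37, and the members of the Tip60-p400 and SRCAP list stay between -0.32 and 0.24.

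In the Nodal pathway the ligand and both of its inhibitors were lower together. Nodal read 11.50 in WT, 10.58 in the KD-labelled library and 11.15 to 11.38 in the other 3. Lefty1 read 12.14, 10.88 and 11.50 to 11.84, and the values of Lefty2 were given above, so for all 3 genes the KD-labelled library was below all 4 others. Nodal lies in a stretch of chromosome 10 described below in which most genes were below WT. The processing proteases were on the other side, with Furin higher by 0.80 and Pcsk6 by 0.50, as was the receptor-activated Smad3 by 0.67, although Smad3 at 10.48 was close to MMTR-C at 10.42. The coreceptor gene Tdgf1 (-0.33), Gdf3 (0.02) and Skil (0.01) were within 0.5. Over 14 measured of 17 listed genes 3 were higher and 3 lower (6.61% of all named genes were higher and 5.58% lower), with a median of 0.10 that was -0.11 under median scaling.

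The pluripotency genes divided. Of 16 measured naive genes 1 was higher and 3 lower (6.61% of all named genes were higher and 5.58% lower). Their median was 0.13, against medians of 0.35, 0.38 and 0.24 in the 3 plasmid lines, and it was -0.18 when the median of the other 4 libraries was the control. Gbx2, a homeobox target of LIF and STAT3 on chromosome 1, read 13.14 in WT, 14.26 in the KD-labelled library and 12.80 to 13.35 in the others. Lower were Tcl1 (11.90, 10.58 and 12.27 to 12.42), Dppa3 by 1.22, and Klf2 on chromosome 8 (13.66, 12.73 and 13.88 to 14.05). Dppa3 at 8.47 was scarcely below MMTR-N at 8.58, while for Tcl1 and Klf2 the gap to the nearest library was 0.93 or more. Esrrb at 15.01 was higher than WT by 0.45, and so were the plasmid lines, at 15.02 to 15.08.

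Of the 13 core genes 2 were higher, the neighbouring chromatin-associated genes Dppa4 (13.24, 14.12 and 13.05 to 13.09) and Dppa2 (10.12, 10.80 and 9.76 to 10.07), both in a stretch of chromosome 16 in which many genes were above WT. Rif1, a regulator of replication timing, was lower by 1.07, Sall4 by 0.70 with probes from -0.70 to 0.40, and Lin28a by 0.53. Pou5f1 (0.33), Nanog (-0.05) and Sox2 (0.10) were within 0.5 of WT. Of 10 measured genes of the primed epiblast 4 were higher and none lower, with a median of 0.23 (6.61% of all named genes were higher and 5.58% lower). The POU factor gene Pou3f1 read 9.27 in WT, 10.24 in the KD-labelled library and 8.62 to 8.95 in the others, Etv4 was higher by 0.78, Sall2 by 0.61, and Fgf5, not detected in WT, was at least 1.61-fold higher. Each of the 3 plasmid lines had 4 genes of this list lower and none higher.

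Of 26 measured cell cycle genes of G1/S and replication 7 were higher and 2 lower (6.61% of all named genes were higher and 5.58% lower), and the median of 0.15 was 0.04 under median scaling and 0.06 with the mean over probes. The D-type cyclin gene Ccnd3 read 11.97 in WT, 13.43 in the KD-labelled library and 12.37, 12.73 and 12.07 in the other 3 lines (MMTR-F, MMTR-C, MMTR-N). It was the highest there, as was E2f1 (10.70, 11.63 and 10.97 to 11.23), whereas Ccnd2 at 10.12 was level with MMTR-C at 10.09. Mcm7, a subunit of the replicative helicase, was lower by 1.07, with probes up to 0.36.

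Of 14 measured imprinted genes 2 were higher (Igf2 and the cell cycle inhibitor Cdkn1c, by 0.80) and 4 lower (Mest, Impact by 1.07, Phlda2 by 0.95 and Grb10 by 0.61), and the median was 0.03. Over all named genes 6.61% were higher and 5.58% lower. Lower imprinted genes were found in the plasmid lines too. MMTR-F had 6 lower and 1 higher (median -0.39), MMTR-C 4 and 0 (-0.36) and MMTR-N 3 and 1 (-0.08). Grb10 read 11.83 in WT and 11.21 in the KD-labelled library but 9.07 to 9.86 in the plasmid lines, so its direction turned when the median of the other 4 libraries was the control. Among 11 measured DNA methylation genes 2 were lower, Dnmt3l and the methyl-CpG-binding protein gene Mbd2 (10.08 in WT, 9.03 in the KD-labelled library and 9.35 to 9.63 in the others), and none was higher. This was not particular to the KD-labelled library, since MMTR-F had 2 of these genes lower, MMTR-C 3 and MMTR-N 3, with none higher. Cholesterol synthesis genes had a median of -0.23 over 16 measured members, with 3 lower, of which Msmo1 (-1.15) and Mvd (-0.66) lie on chromosome 8 and Lss (-0.51) on chromosome 10, and 1 higher, Hsd17b7 on chromosome 1 (0.54).

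Chromosome 8 stood apart as a whole. Its 528 measured genes had a median difference of -0.30 from WT, with quartiles of -0.51 and -0.09, while the 8873 genes elsewhere had a median of 0.03. The plasmid lines showed medians of 0.04, -0.03 and 0.02 on chromosome 8. Of the 528 genes 444 were below WT, 136 (25.8%) were lower and 6 were higher, and 380 genes, 72% of them, lay below all 4 other libraries (24.8% of all named genes did). The shift was smaller for dim genes. In 4 sets of 132 genes, ordered from the dimmest to the brightest, the medians were -0.07, -0.34, -0.42 and -0.43.

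The lowest chromosome 8 genes were not of 1 kind. The Bardet-Biedl protein gene Bbs2 (-1.51), the zinc finger gene Zmat4 (-1.45), the heme oxygenase gene Hmox1 (-1.44), the RNase H2 catalytic subunit gene Rnaseh2a (-1.33), the glycosyltransferase gene B3gnt9 (-1.31), the pre-mRNA cleavage factor gene Nudt21 (-1.28), the microtubule linker gene Hook2 (-1.18) and the autophagy gene Map1lc3b (-1.18) made up the lowest 8. Nudt21 read 13.44 in WT, 12.16 in the KD-labelled library and 13.16 to 13.25 in the others, and Hmox1 read 11.03, 9.58 and 9.93 to 10.47. For both the KD-labelled library was the lowest of the 5. The 6 higher genes were Col4a1, Col4a2, the glycosyltransferase gene Galnt2 (1.22, probes from 0.15), the lipoprotein lipase gene Lpl (0.59), the NADPH oxidase subunit gene Cyba (0.53) and Irf2bp2 (0.51), so the collagen IV pair was high on the chromosome whose genes were mostly low.

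**Figure D3:**
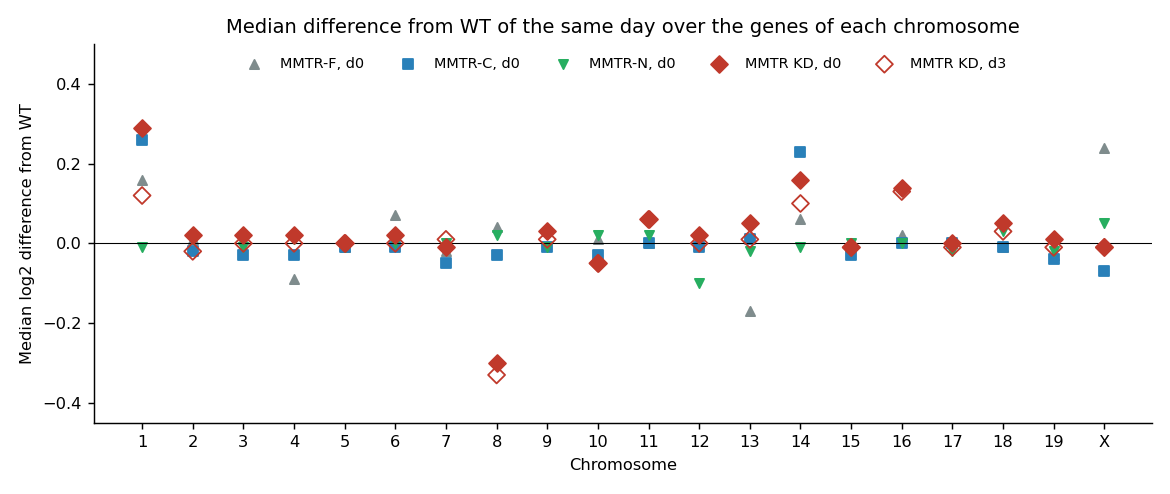
Median difference from WT at d0 on the log2 scale over the measured genes of each chromosome, for the KD-labelled library and the 3 plasmid lines, 1 array each, with the KD-labelled library against WT at d3 added. Chromosome 8 of the KD-labelled library stands at -0.30 where the other 3 lines lie between -0.03 and 0.04, and chromosome 1 stands at 0.29 with MMTR-C at 0.26.

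Other chromosomes departed less. Chromosome 1 had a median of 0.29, but MMTR-C at 0.26 and MMTR-F at 0.16 did likewise. Chromosome 14 was similar, at 0.16 in the KD-labelled library and 0.23 in MMTR-C. Chromosome 16 had a median of 0.14 where the other lines did not exceed 0.02. Running medians over 25 neighbouring genes located where such shifts sat. A stretch was taken, by a rule chosen after seeing the data and without a test, where the running median of the KD-labelled library departed by at least 0.2 and that of no other line by over 0.15. Runs of 1 direction fewer than 25 genes apart were joined, so single windows inside a stretch can miss these limits. After joining, runs of fewer than 25 windows were dropped, so shorter departures are not listed.

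By this rule chromosome 8 held a stretch of 87 genes from Ctxn1 to Gtf2e2 (median -0.25) and one of 387 genes from Stox2 to 2810004N23Rik (-0.33). On chromosome 10, 58 of 451 genes, from Mtres1 to Egr2, had a median of -0.48, with medians of 0.01, -0.04 and 0.04 in the other lines. In it 27 genes (46.6%) were lower, none was higher, and 45 of the 58 lay below all 4 other libraries. It holds Nodal, Gja1, the retromer gene Vps26a (12.71 in WT, 11.41 in the KD-labelled library and 12.73 to 13.37 in the others), the stress-response gene Ddit4 (-0.94) and the DNA demethylase gene Tet1 (-0.48). On chromosome 16, 155 of 297 genes, from Txnrd2 to Gabpa, had a median of 0.23, with medians of 0.03, 0.01 and -0.02 in the other lines, and 31 (20%) were higher and 1 lower. It holds Dppa2, Dppa4, Etv5 and Cdc45. The part that these shifts have in the values of the members named above was not tested.

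**Figure D4:**
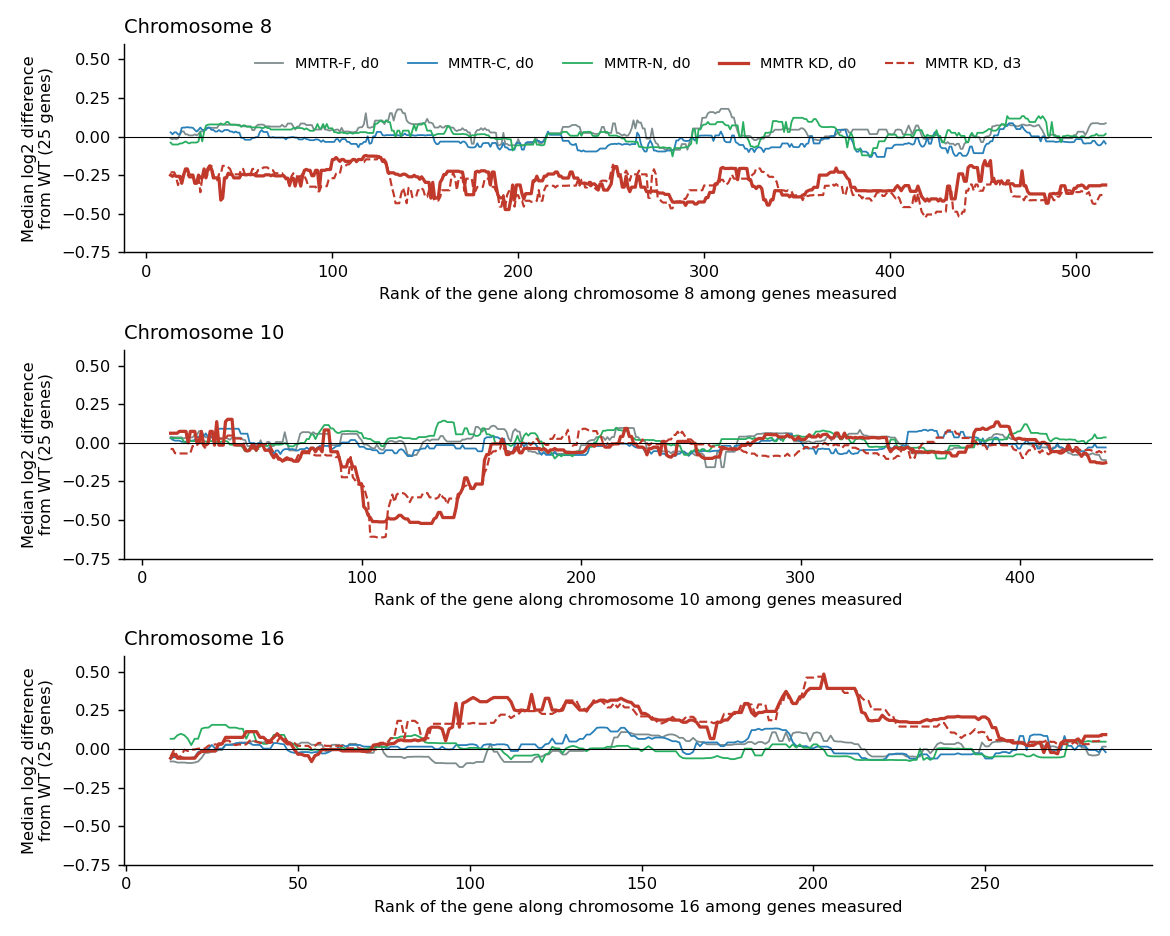
Running median over 25 neighbouring genes of the difference from WT at d0 on the log2 scale (y axis) along the gene order (x axis) of chromosomes 8, 10 and 16, 1 curve per line at d0 and a dashed curve for the KD-labelled library at d3. The KD-labelled library runs below 0 along most of chromosome 8 and in 1 block of chromosome 10 (median -0.48), and above 0 in 1 block of chromosome 16 (median 0.23), where the other lines stay near 0.

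The same pair of lines at d3 gave a second, separately hybridized sample of each line, under another condition. Of the 846 probes higher at d0, 734 kept their sign at d3 and 226 (26.7%) were higher by 0.5 again, where 3.37% of all probes were higher at d3. Of the 868 lower probes 716 kept their sign and 208 (24%) were lower again, against 2.85% of all probes. The opposite call was made for 4 of the higher and 12 of the lower probes. Chromosome 8 held 183 of the lower probes, and 86 of these (47%) were lower again, against 24.2% of its probes. Of the 685 lower probes outside chromosome 8 or unnamed, 122 (17.8%) were lower again, against 1.83%. On chromosome 8 the d3 median was -0.33 over genes, and 453 of the 528 genes were below WT. The chromosome 10 and 16 stretches had d3 medians of -0.37 and 0.22, close to their values at d0. A further limma fit took all 10 arrays, with line and day as terms. It called 281 probes higher (1.58%) and 307 lower (1.73%) in the KD-labelled libraries against WT. Of these, 3 of the higher and 149 of the lower probes were on chromosome 8. By gene, 112 were lower and 3 higher on chromosome 8, and 80 lower and 213 higher outside it. In this fit the d0 and d3 arrays of a line take the place of replicates. Its p-values measure how far the line differences change between days, not the spread between lines or clones.

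Of the germline list 5 of 14 measured genes were higher at d3 and none lower, and of the basement membrane and matrix list 8 of 17 were higher and none lower, where 4.55% of all named genes were higher and 3.45% lower. Tex19.1 was higher by 1.74 at d3, Rnf17 by 1.26, Amn by 1.06 and Col4a2 by 1.16. These genes were picked by their d0 values, and their d3 differences were not tested. Lama1, under 0.5 at d0, read 8.73 in WT and 10.58 in the KD-labelled library at d3. The gap of Gbx2 was wider at d3, at 9.41 in WT and 11.57 in the KD-labelled library, while Lefty2 was nearly level, at 9.92 and 9.83. Of the Wnt targets, 4 of 9 measured were higher at d0 with a median of 0.35, where 6.61% of all named genes were higher at d0. Among these 4 was the zinc finger factor gene Sp5, at 9.39 in WT and 10.10 in the KD-labelled library at d0. At d3 it read 8.01 in WT, under the detection floor, and 12.39 in the KD-labelled library. Lefty1 and Nodal changed sides, which was not tested. Lefty1 read 9.90 in WT and 11.35 in the KD-labelled library at d3, and Nodal read 10.21 and 11.32. The median of the primed list was 0.23 at d0 and -0.31 at d3, where 1 of its 10 measured genes was lower by 0.5 (Sall2, at -0.76) and none higher, and Pou3f1 stood at -0.43.

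**Figure D5:**
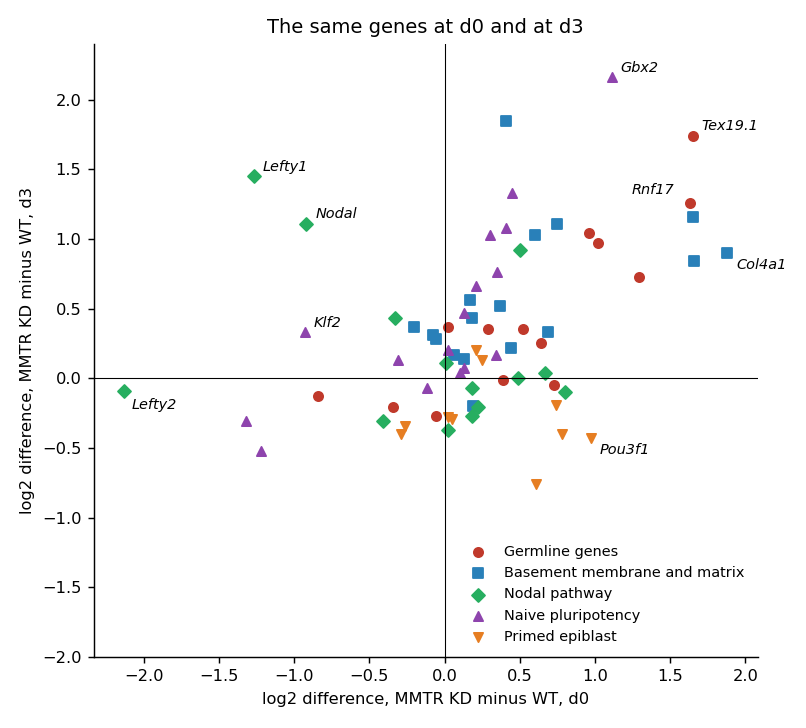
Difference of the KD-labelled library from WT on the log2 scale at d0 (x axis) and at d3 (y axis) for the measured members of 5 gene lists, 1 point per gene. Germline and basement membrane genes lie mostly in the upper right, Lefty1 (-1.27 and 1.45) and Nodal (-0.92 and 1.11) in the upper left, and the primed epiblast genes that were higher at d0 in the lower right.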

How the data were processed

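Total RNA of the 10 libraries was amplified to biotinylated cRNA and hybridized to Illumina mouse WG-6 bead arrays. The deposited table holds, per probe and array, the mean bead intensity and a detection p-value, both exported by the authors from BeadStudio 3.2. The authors also deposited a log2 table of 16652 probes. Their text names an RMA-type background correction, log2 scaling and the quantile method of lumi, and the log2 values were checked to lie within 0.044 of the log2 and quantile-normalized intensities. The array build is not given in the sources used here. Groups came from the labels of each library, 0 sample columns were left unused, and the labels mark no replicates and no batches.

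Intensities (lowest 139) were log2 transformed and quantile normalized over all 10 arrays, with no pseudocount. Probes detected at p of at most 0.05 on at least 5 arrays were kept (17775 of 45281). Of these 14281 carried a gene name (9401 symbols), 14267 matched RefSeq by symbol or ID, which gave the chromosome and gene order, and 3494 were unnamed. A gene with more than 1 probe was represented by its brightest probe. A probe detected in 1 of the pair only was given as a bound against the detection floor of the other array. The d0 fit used limma 3.58.1 in R 4.3.3 with Benjamini-Hochberg adjustment over all kept probes. Tested on simulated data of the same size (17775 probes), it found 8% of 50 changes of 0.5, 88% of 50 of 1, 98% of 50 of 2 and 100% of 50 of 3, with 15 false calls. The simulated noise was normal, with a spread moderated by limma and alike on every array. These shares need not hold for the real arrays. Python 3.11.15 was used for the rest.

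Named genes were Dmap1, the 15 highest and 15 lowest outside chromosome 8 that lay outside the range of the other 4 d0 libraries, the 8 lowest and all higher genes of chromosome 8, list members past 0.5 with up to 4 other bright members, and Eif2s3y with other sex-linked genes. These genes, the gene lists and the comparison itself were chosen with earlier results of these data known. Alternatives covered background correction, normalization, filters, probes per gene, thresholds, the control library and each line left out. The number of arrays limits the precision throughout.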

Additional observations from a re-analysis of the deposited data

Results flagged for a closer look

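The difference between the KD-labelled library and WT had opposite signs at d0 and d3, past 0.5 on both days, for 6 of the named genes. Each day has 1 array per line, so the change of sign was not tested for any of them. Lefty1, an inhibitor of Nodal, was at -1.27 at d0 and 1.45 at d3. Nodal itself, in the stretch of chromosome 10 with lower values on both days, was at -0.92 and 1.11. The thymosin gene Tmsb4x was at -0.80 and 0.94, Id1, a Bmp target, at -0.67 and 0.83, and the stress-response gene Ndrg1 at -0.63 and 0.65. Sall2, a zinc finger gene of the primed list, went the other way, from 0.61 to -0.76.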

How the results depend on the processing

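Over 1583 values of single named genes under the alternatives, 1433 moved by less than the standard deviation of the other d0 lines, 149 moved by more, and of those past 0.5 at first 1 changed sign, Grb10, at 1.48 against the median of the other 4 d0 libraries. The count of higher probes (846) became 1454 after normexp background correction and 87 at a threshold of 1. The count of lower probes (868) became 1542 with normexp, 1571 with median scaling, 86 at a threshold of 1 and 525 by gene symbol. Of the 11912 named probes outside chromosomes 1, 8 and 14 and the stretches, an alternative chosen after seeing the data, 3.93% were higher and 3.98% lower. The share called again at d3 became 19.8% (median scaling) and 23.4% (normalization over the d0 arrays only) for higher probes, and 20.5% (d0 arrays only) and 10.5% (threshold of 1) for lower probes. The chromosome 8 median became -0.38 with normexp, -0.41 with median scaling and -0.39 without its 132 dimmest genes, the last chosen after seeing the data, and its count of lower genes 219 with median scaling and 12 at a threshold of 1. List members lower numbered 89 with median scaling. With normexp the medians were 0.86 for germline, 0.96 for primitive endoderm and -0.32 for cholesterol genes. With median scaling they were 0.22 for matrix, -0.11 for Nodal, 0.04 for G1/S and -0.40 for cholesterol genes. Against the median of the other 4 d0 libraries they were 0.91 for primitive endoderm, 0.14 for Nodal, -0.18 for naive, 0.59 for primed and 0.23 for imprinted genes. With the mean over probes they were 0.26 for matrix, 0.56 for primitive endoderm, 0.08 for core and 0.06 for G1/S genes. The matrix median was 0.19 without chromosome 8 and 0.19 without all those regions. The Nodal median was 0.06 when normalized without chromosome 8, 0.02 with probes detected on all 5 d0 arrays and 0.18 without those regions, so it has no settled sign. The limma calls (5 higher, 0 lower) became 10 and 20 with median scaling, 26 and 9 with a trend in the prior, 281 and 307 with line and day as terms, and 8 higher with probes detected on at least 1 array. Leaving out each other line in turn gave 0 to 7 higher and 0 to 1 lower. The adjusted p ranged over the settings from 0.0021 to 0.096 for Col4a1, 0.0029 to 0.11 for Col4a2, 0.0016 to 0.096 for Dab2 and 0.0029 to 0.096 for Rnf17. The cause of these moves was not tested. No paired analysis was possible because at d0 each line has 1 array with no replicate number, though the fit with line and day as terms compares the lines within each day. Dim genes near the detection floor have compressed differences.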

Other observations

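Of 10 measured histone H2B genes 5 were higher and none lower, with a median of 0.47, where 6.61% of all named genes were higher. Only 1 of the 10 lay above all 4 other d0 libraries, and MMTR-C had a median of 0.58 with 6 members higher. The H2B member with the highest difference, H2bc4, stood at 0.73 at d0 and 0.71 at d3. Of 10 measured H3 genes 2 were higher, H3c6 by 0.75 and H3f3b by 0.58, and the median was 0.46. MMTR-C had 4 of these 10 higher, with a median of 0.30, and MMTR-F and MMTR-N had none higher. The H2A genes had a median of 0.09 over 14 measured, and the H4 genes one of -0.01 over 6.

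Of 13 measured adhesion and junction genes 4 were lower and none higher, where 5.58% of all named genes were lower. The 4 were Gja1, the splicing regulator Esrp1 (-1.06), the claudin gene Cldn4 (-0.76) and the desmoglein gene Dsg2 (-0.54). Of this list MMTR-F had 3 lower and 1 higher, MMTR-C 3 lower and 1 higher, and MMTR-N 2 lower and 2 higher. Among 17 annexins, S100 proteins, keratins and thymosins 5 were lower, with S100a6 at -1.14 and the galectin gene Lgals3 at -0.85, while the keratin pair Krt8 (0.55) and Krt18 (0.67) was higher. In MMTR-F 7 of the 17 were lower and none higher, while MMTR-C had 2 higher and none lower, and MMTR-N 1 of each. Of 14 measured genes of a list of Myc and ribosome biogenesis 3 were lower and none higher. These were Bop1 (-1.07), the spermidine synthase gene Srm (-0.97) and the RNA polymerase I subunit gene Polr1b (-0.90), which at d3 stood at -0.06, -0.48 and -0.14. From the same list MMTR-F had 3 lower, MMTR-C 2 and MMTR-N 2, with 1 higher in MMTR-N only. Of 14 p53 response genes 3 were higher, where 6.61% of all named genes were. Among them was the cell cycle inhibitor Cdkn1a, higher by 0.55, which at d3 read 9.38 in WT and 11.36 in the KD-labelled library.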
